A study of Mus musculus with 10 samples.

Results

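The complement genes described here are C3, C2, Cfb, C4b, C1ra, Serping1, Cfi, Cd55 and C3ar1. They were taken by name from a table of 16875 gene names measured in colon tumors, and all 9 were present. Complement is a cascade of serum and tissue proteins that marks microbes and damaged cells. The classical pathway starts when C1q, with its attached proteases C1r and C1s, binds a target and C1s cuts C4 and C2. The alternative pathway runs through factor B. Both pathways build enzymes that cleave C3, the central protein of the cascade. C1 inhibitor, factor I and CD55 hold these enzymes in check, and the receptor of the small C3 fragment sits mainly on myeloid cells. The liver makes most complement of the blood, but intestinal epithelium, fibroblasts and macrophages also transcribe these genes, several of which respond to interferons and to inflammatory cytokines.

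RNA was sequenced from 10 macrodissected colon tumors of mice on a C57Bl6 background, in which azoxymethane (AOM, a carcinogen) and 3 cycles of 2% dextran sulfate sodium (DSS, which injures the colon lining) had induced the tumors. The 5 control tumors were Wls flox/flox, and the 5 Villin-Wls cKO tumors carried Villin-Cre ERT2 on the same Wls flox/flox alleles, so that tamoxifen deletes Wls, which Wnt ligands need for secretion, in intestinal epithelium, where the Villin promoter drives Cre. For the deletion, 5 tamoxifen injections of 80 mg/kg began 30 days before collection, whereas controls are described as having had no tamoxifen unless stated. Mice were 6 to 10 weeks old at the start. The number of mice behind the tumors is not given in the sources used here, so that n counts tumors and the spread between them may in part be technical. Tumors from the same mouse would not be independent. All standard errors and p-values here treat the tumors as independent and would then tend to be too small. The values are FPKM (fragments scaled by transcript length and by mapped reads), a scale per length on which genes can be compared. A log2 change is the mean log2(FPKM + 1) of Villin-Wls cKO tumors less that of control tumors, fitted in limma for 16757 genes whose mean reached 0.5 FPKM, and the threshold is a Benjamini-Hochberg adjusted p under 0.05 over all of them.

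Wls ranged from 61.3 to 79.9 FPKM in control tumors and from 2.03 to 11.7 FPKM in Villin-Wls cKO tumors. Xist, expressed from the inactive X chromosome of females, was at most 0.42 FPKM in control tumors and at least 439 FPKM in Villin-Wls cKO tumors, and the Y-linked gene Eif2s3y was at least 30.4 and at most 0.138 FPKM, respectively. Genotype, sex and tamoxifen therefore cannot be told apart in this comparison. Krt5, a keratin of stratified squamous epithelium, was at 469.5 and 669 FPKM in Villin-Wls cKO tumors 2 and 3 and at most 0.315 FPKM in the other 8 tumors. The 9 markers of colon epithelium, led by Krt19, all had values, and their summed level was between 5535 and 7832 FPKM in control and between 6675 and 8820 FPKM in Villin-Wls cKO tumors. Krt19, at a mean of 3027 FPKM in control and 3504 FPKM in Villin-Wls cKO tumors, had the same values as Krt13 and Krt17. The sum is therefore not one of colon epithelium alone. All 9 markers had higher means on the log2 scale in Villin-Wls cKO tumors, 5 at an unadjusted p under 0.05, and Krt20 passed the threshold (limma adjusted p = 0.0156). Of all genes tested, 10.9% passed it. For counts at an unadjusted p, here and below, the share of all genes is not given. The part of epithelial content in the complement levels was not tested. The FPKM of a tumor summed to between 1265992 and 1533885 in control and between 1207683 and 1341494 in Villin-Wls cKO tumors. Since read numbers could not be recovered, the depth is unknown.

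The 9 names stand for 8 measurements. C2 and Cfb carried the same value in every tumor, as did Gm20547, a gene model that overlaps both. Cfb lies on the minus strand of chromosome 17 from 34856374 to 34862518 of GRCm38 (GENCODE M21), and C2 follows 85 bases further on, from 34862604 to 34898265. Their annotated transcripts share 0 stretches of 50 bases, and the single value cannot be divided between the 2 genes. C4b, on chromosome 17 from 34728380 to 34743882, had the same values as C4a, 65209 bases away. Of the 50-base stretches in C4b transcripts, 34.6% also occur in C4a. Cd55, on chromosome 1 from 130439027 to 130462744, had the same values as Daf2, an older name of the neighboring gene Cd55b, and 8.0% of its stretches occur in that gene. C3, C1ra, Serping1, Cfi and C3ar1 each had values of their own. Whether strand was used in the quantification is not given in the sources used here, so reads of Cd55 and of its antisense gene model Gm16083 cannot be told apart. The same limit holds for C2 and Zbtb12, a protein-coding gene that overlaps it on the opposite strand. It also holds for the C1s gene C1s1, named below, and its antisense gene model Gm16567.

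C3, on chromosome 17 from 57203970 to 57228136, rose in Villin-Wls cKO tumors. In control tumors 1 to 5 it was at 9.50, 6.63, 12.3, 16.1 and 7.93 FPKM. In Villin-Wls cKO tumors 1 to 5 it was at 19.7, 41.5, 63.2, 49.7 and 17.8 FPKM. Each Villin-Wls cKO tumor was above every control tumor, but tumors 1 and 5 lay only just above the highest of them. The mean was 10.5 ± 3.77 FPKM in control and 38.4 ± 19.5 FPKM in Villin-Wls cKO tumors (SD, n = 5 each). On the log2 scale it was higher by 1.67 ± 0.36 (standard error, SE; limma adjusted p = 0.0157). Without Villin-Wls cKO tumors 2 and 3 the change was 1.29 and no longer passed the threshold (limma adjusted p = 0.0779).

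The 250 bases before the start site of C3 are printed here because C3 is the gene with the largest change of the 9. They come from the RefSeq promoters on GRCm38.p6, chr17:57228137-57228386 on the minus strand. Capitals mark a match to the C/EBP core TTGCNNAA.
C3: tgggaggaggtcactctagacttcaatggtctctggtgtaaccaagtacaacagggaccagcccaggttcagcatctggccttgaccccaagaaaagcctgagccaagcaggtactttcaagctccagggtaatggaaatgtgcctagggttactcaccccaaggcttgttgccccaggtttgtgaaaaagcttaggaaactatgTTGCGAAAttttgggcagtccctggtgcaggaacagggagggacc
The motifs searched on both strands, with overlaps allowed, were the STAT site TTCNNNGAA, the IRF site, the C/EBP core TTGCNNAA and the kappa B consensus. Entries were matched for 4 of the 9 genes, namely C3, C1ra, Cd55 and C3ar1. The only match among them was the C/EBP core of C3, which begins 45 bases before the start site. For C1ra the RefSeq start site, 124512621, lies inside the GENCODE gene model, so that 216 of the 250 bases searched belong to that model and not to sequence before it. Of all 32851 promoters, 9.56% held this core, 7.02% the STAT site, 2.98% the IRF site and 7.25% the kappa B consensus.

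The shared measurement of C2, the protease subunit of the classical C3 convertase, and Cfb, its counterpart in the alternative pathway, also rose. Control tumors 1 to 5 had 42.9, 43.4, 59.8, 32.7 and 45.9 FPKM. Villin-Wls cKO tumors 1 to 5 had 94.1, 109, 131, 85.3 and 97.9 FPKM. The groups did not overlap, with tumor 3 highest in each of them. The mean was 44.9 ± 9.74 FPKM in control and 103.6 ± 17.8 FPKM in Villin-Wls cKO tumors (SD, n = 5 each). On the log2 scale it was higher by 1.20 ± 0.16 (SE, limma adjusted p = 0.00109). The change was 1.05 without Villin-Wls cKO tumors 2 and 3 (limma adjusted p = 0.00874).

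C3 and the C2 and Cfb locus were the 2 of 8 measurements, or 3 of the 9 names, that passed the threshold, all in the higher direction, and the same 2 had groups that did not overlap. Of all genes tested, 10.9% passed the threshold, 6.12% as higher and 4.75% as lower in Villin-Wls cKO tumors, and for 10.1% the groups did not overlap, 5.33% with Villin-Wls cKO higher. This division depended on the scaling: 56.3% of the genes past the threshold were higher, against 77.0% after every tumor was set to an equal FPKM total and 44.2% with quantile normalization. The median log2 change of the 9 names, with C2 and Cfb entering as 2 names, was 0.70, beside 0.0073 over all genes tested. The 9 genes were chosen with earlier results of these data known, so these counts and this median support nothing on their own.

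**Figure D1:**
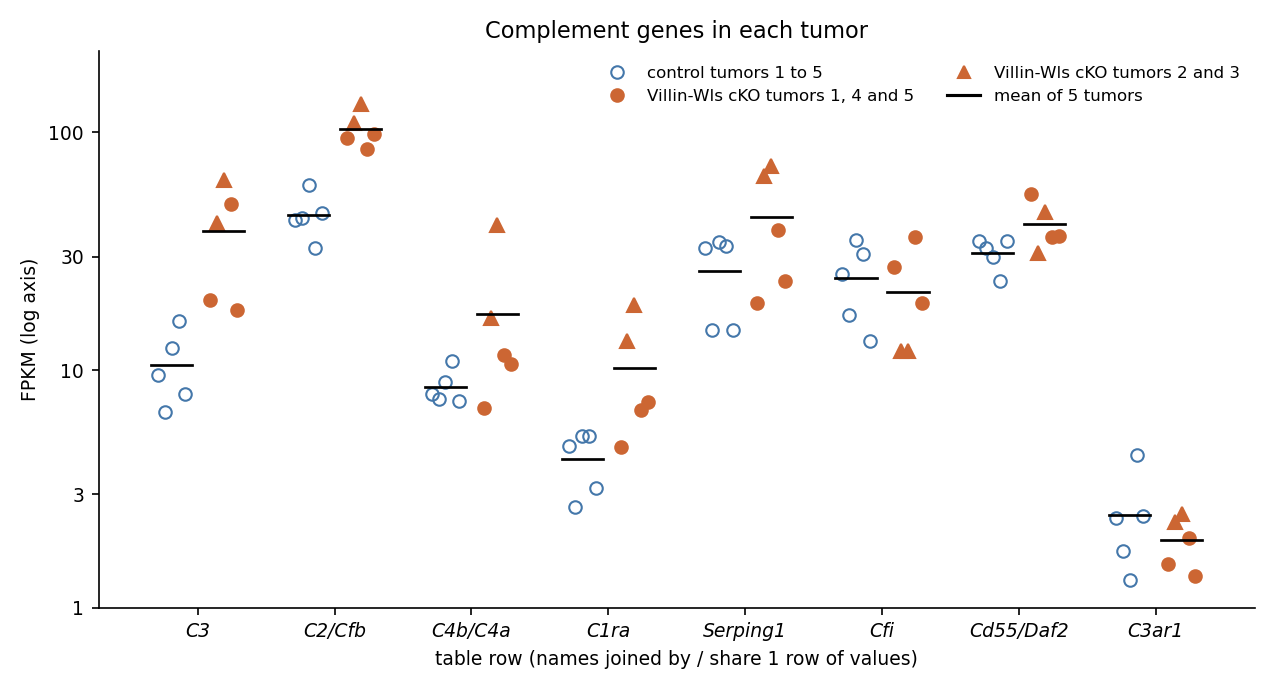
FPKM (log axis) of the 8 measurements in each of the 10 tumors, with open circles for control, filled symbols for Villin-Wls cKO (triangles for tumors 2 and 3) and a line at each mean. For C3 and for C2 and Cfb all filled symbols lie above the open ones; for C4b, C1ra and Serping1 the triangles lie above all control tumors, and for Cfi below them.

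C1ra encodes a C1r protease of the classical pathway and lies on chromosome 6 from 124512405 to 124523443. It was at 4.77, 2.67, 5.29, 5.28 and 3.20 FPKM in control tumors 1 to 5. In Villin-Wls cKO tumors 1 to 5 it was at 4.76, 13.2, 18.8, 6.78 and 7.33 FPKM. Tumors 2 to 5 were above every control tumor and tumor 1 lay among them. The log2 change of 0.98 (standard error 0.32, 95% interval 0.27 to 1.69) stayed short of the threshold (limma adjusted p = 0.0803). It passed when all tumors had an equal FPKM total and without Villin-Wls cKO tumor 1 (limma adjusted p = 0.0472 and 0.039), and it was 0.49 without Villin-Wls cKO tumors 2 and 3. The paralog C1rb, in whose transcripts 59.2% of the 50-base stretches are shared with C1ra, was below the filter on low values, with at most 0.122 FPKM in control tumors and between 0.296 and 1.44 FPKM in Villin-Wls cKO tumors. Reads of this pair cannot be assigned with certainty.

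C4b encodes complement C4, which the C1s protease cuts. It was at 7.92, 7.54, 8.88, 10.9 and 7.38 FPKM in control tumors 1 to 5. In Villin-Wls cKO tumors 1 to 5 it was at 6.89, 16.6, 40.7, 11.6 and 10.6 FPKM. Tumor 3 alone was far from the rest, and tumor 1 was the lowest of all 10. The log2 change was 0.70 (standard error 0.37, 95% interval -0.12 to 1.52, limma adjusted p = 0.268). It was 0.34 without Villin-Wls cKO tumor 3 and to 0.15 without tumors 2 and 3.

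Serping1, on chromosome 2 from 84765387 to 84775444, encodes C1 inhibitor, which inactivates C1r and C1s. Control tumors 1 to 5 had 32.6, 14.8, 34.6, 33.4 and 14.7 FPKM. Villin-Wls cKO tumors 1 to 5 had 19.1, 65.5, 71.9, 39.0 and 23.6 FPKM. The control tumors fell into a high set of 3 and a low pair, and Villin-Wls cKO tumors 1 and 5 lay between these. The log2 change was 0.65 (standard error 0.41, 95% interval -0.26 to 1.55, limma adjusted p = 0.36), and 0.10 without Villin-Wls cKO tumors 2 and 3.

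Cfi, on chromosome 3 from 129835884 to 129875332, encodes factor I, the protease that breaks down active C3 and C4 fragments. Control tumors 1 to 5 had 25.4, 17.1, 35.1, 30.9 and 13.3 FPKM. Villin-Wls cKO tumors 1 to 5 had 27.1, 12.0, 12.0, 36.3 and 19.1 FPKM. Tumors 2 and 3 were the lowest of all 10, whereas tumor 4 was the highest. The log2 change was -0.23 (standard error 0.35, 95% interval -1.0 to 0.54, limma adjusted p = 0.74) and became 0.21 without tumors 2 and 3.

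Cd55 encodes a membrane protein that takes C3 convertases apart on the cell's own surface. Control tumors 1 to 5 had 35.0, 32.5, 29.8, 23.7 and 34.9 FPKM. Villin-Wls cKO tumors 1 to 5 had 55.2, 31.1, 46.1, 36.1 and 36.6 FPKM. Of these, 4 were above every control tumor, 2 of them by less than 2 FPKM, and tumor 2 lay among the controls. The log2 change was 0.37 (standard error 0.16, 95% interval 0.016 to 0.72, limma adjusted p = 0.176).

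C3ar1, on chromosome 6 from 122847138 to 122856161, encodes the receptor of the small C3 cleavage fragment. Control tumors 1 to 5 had 2.39, 1.74, 1.31, 4.38 and 2.43 FPKM. Villin-Wls cKO tumors 1 to 5 had 1.52, 2.29, 2.48, 1.97 and 1.37 FPKM. All Villin-Wls cKO tumors lay within the range of the controls, and the log2 change was -0.19 (standard error 0.22, 95% interval -0.67 to 0.29, limma adjusted p = 0.635).

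On the FPKM scale the order of the mean levels in control tumors was C2 and Cfb, Cd55, Serping1, Cfi, C3, C4b, C1ra and C3ar1. The values of C2 and Cfb, of Cd55 and of C4b are shared with other gene names, so their places are not those of single genes. Cd55 exceeded Serping1, and Serping1 exceeded Cfi, in 3 of 5 control tumors each, and C3 exceeded C4b in 4 of 5, so that these neighbors did not differ beyond their spread. Each of the other neighbors kept its place in 5 of 5. In Villin-Wls cKO tumors C3 stood at 38.4 FPKM beside Cd55 at 41.0 ± 9.60 FPKM and Serping1 at 43.8 ± 24.0 FPKM (SD, n = 5 each), and it exceeded Cd55 in 3 of 5 tumors. Cfi followed at 21.3 ± 10.4 FPKM (SD, n = 5), C4b at 17.3 ± 13.6, C1ra at 10.2 ± 5.75 and C3ar1 at 1.93 ± 0.48 FPKM (SD, n = 5 each).

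In Villin-Wls cKO tumors, though not in control tumors, some genes of the classical pathway had 1 order of tumors. Serping1, C4b, C1qa and the C1s genes C1s1 and C1s2, which carry 1 value between them, had the same sequence, highest in tumor 3 and then in tumors 2, 4, 5 and 1. C1ra differed from it only in that tumor 5 was above tumor 4, whereas C2 and Cfb ran from tumor 3 over tumors 2, 5 and 1 to tumor 4. The order was not particular to the classical pathway, since the receptor gene C3ar1 differed from it only in that tumor 1 was above tumor 5. Summed macrophage markers ran as C3ar1 did, from tumor 3 over tumors 2, 4 and 1 to tumor 5. C1s1 and C1s2 were at 27.3, 8.76, 14.2, 28.2 and 12.9 FPKM in control tumors 1 to 5 and at 12.9, 42.8, 59.0, 25.5 and 16.9 FPKM in Villin-Wls cKO tumors 1 to 5. Their log2 change of 0.67, with a standard error of 0.44, stayed short of the threshold (limma adjusted p = 0.377). C3 had another order, with tumor 4 between tumors 3 and 2, and Cfi was highest in tumors 4 and 1. In control tumors Serping1 and Cfi both ran from tumor 3 over tumors 4, 1 and 2 to tumor 5, whereas C1s1 and C1s2 ran from tumor 4 over tumors 1, 3 and 5 to tumor 2. These orders are a description of 5 tumors each and were not tested.

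**Figure D2:**
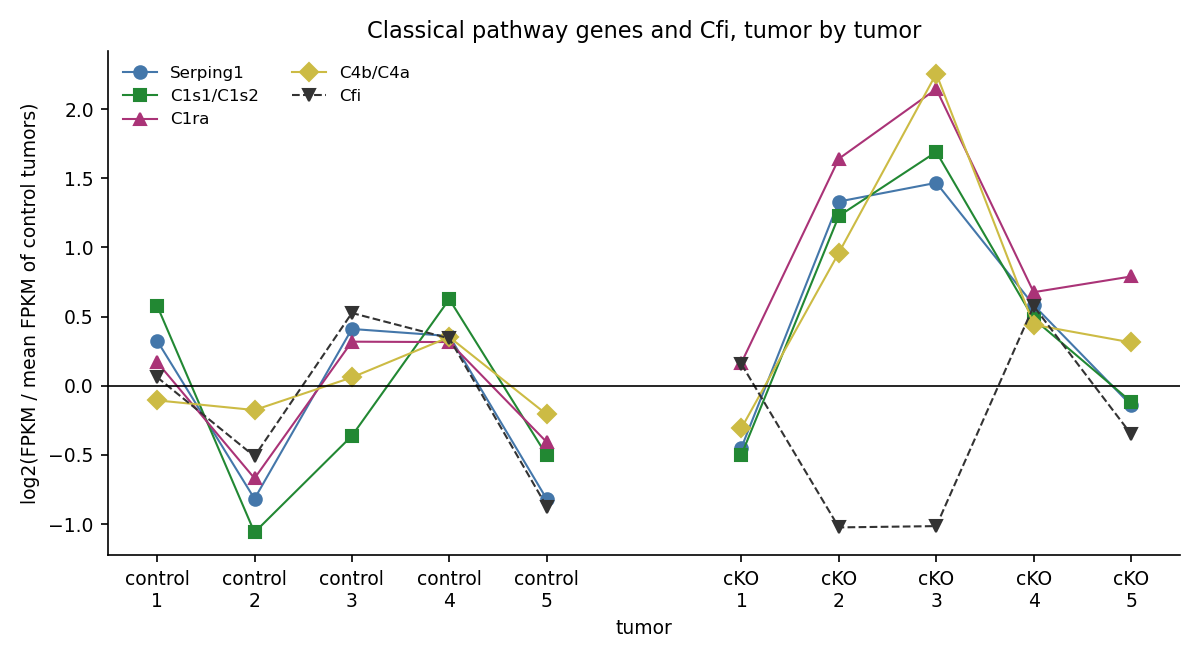
Level of Serping1, C1s1 and C1s2, C1ra, C4b and Cfi in each tumor as the log2 ratio of its FPKM to the mean FPKM of control tumors; lines join the points of 1 gene and stand for no order. The C1 genes, C4b and Serping1 peak in Villin-Wls cKO tumors 2 and 3, where Cfi is at its lowest.

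Tumors 2 and 3 were also those with Krt5. There Serping1 was at 65.5 and 71.9 FPKM, against 19.1 to 39.0 FPKM in the other 3 Villin-Wls cKO tumors, and C1ra at 13.2 and 18.8 FPKM, against 4.76 to 7.33 FPKM. The pair was set apart by what was measured in it, so no test was made. Summed fibroblast markers (9 genes, led by Col3a1) were at 1196 and 668 FPKM in tumors 2 and 3 and at 642, 647 and 403 FPKM in tumors 1, 4 and 5. In control tumors 1 to 5 the same sum was 509, 299, 1039, 725 and 299.6 FPKM. Control tumors 2 and 5, with the lowest Serping1, had the lowest fibroblast sum and also the lowest endothelial sum, 19.2 and 17.3 FPKM. In Villin-Wls cKO tumors 1, 4 and 3, fibroblast sums of 642, 647 and 668 FPKM stood beside Serping1 at 19.1, 39.0 and 71.9 FPKM. Macrophage markers (8 of 9 listed genes, led by Cd68) summed to between 50.2 and 86.8 FPKM in control tumors and were at 70.2 and 92.0 FPKM in Villin-Wls cKO tumors 2 and 3 and at 49.3, 68.1 and 43.8 FPKM in the others. In limma 0 of the 8 macrophage genes passed the threshold (1 at an unadjusted p under 0.05), and 1 of 9 fibroblast genes did, as higher. Of all genes tested, 10.9% passed it. Other lists set the pair apart from the other Villin-Wls cKO tumors as well. Endothelial markers (5 genes, led by Pecam1) summed to 41.7 and 34.4 FPKM in tumors 2 and 3, against 15.4, 23.6 and 18.5 FPKM in tumors 1, 4 and 5. Neutrophil markers (7 genes, led by S100a9) summed to 1242 and 1013 FPKM, against 637, 843 and 592 FPKM, and T cell markers (6 genes, led by Lck) to 24.9 and 22.4 FPKM, against 17.9, 14.9 and 18.7 FPKM. Remaining Wls was at 11.6 and 11.7 FPKM in the pair, against 2.03 to 3.61 FPKM. The part of any of these in the levels of C1ra, C4b and Serping1 was not tested. In whole tumor pieces, more cells of a type and more RNA per cell cannot be told apart.

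The ratio of C3, the substrate, to Cfi, the protease, was chosen after the values had been seen and is given with no test. On the FPKM scale it was 0.37, 0.39, 0.35, 0.52 and 0.60 in control tumors 1 to 5. It was 0.73, 3.46, 5.25, 1.37 and 0.93 in Villin-Wls cKO tumors 1 to 5. The transcript of the substrate thus exceeded that of the protease that degrades its active form in 3 of 5 Villin-Wls cKO tumors and in none of the 5 control tumors. The ratio of C3 to Cd55 overlapped between the groups, from 0.20 to 0.68 in control and from 0.36 to 1.38 in Villin-Wls cKO tumors.

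**Figure D3:**
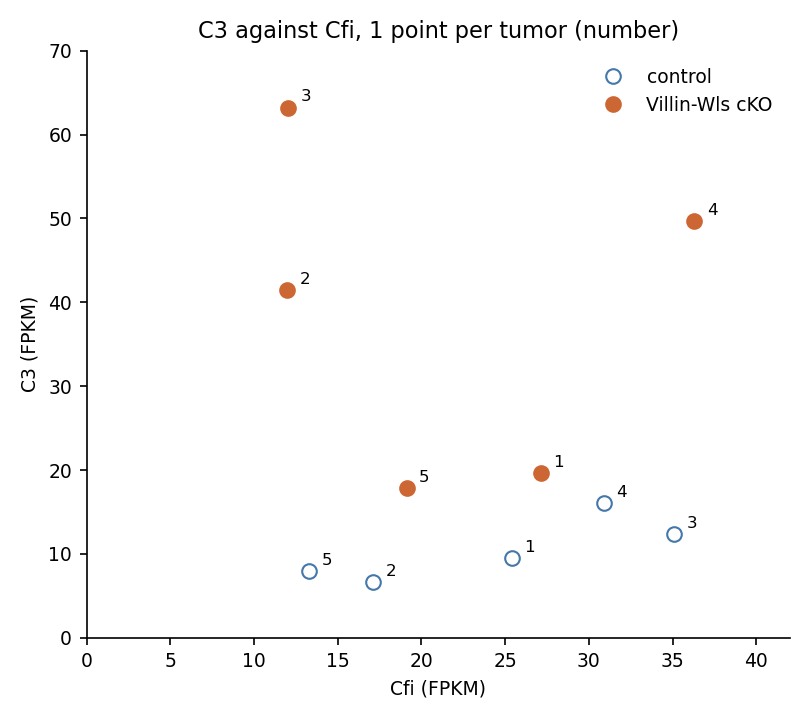
C3 (FPKM, vertical) against Cfi (FPKM, horizontal), 1 point per tumor with its number, open for control and filled for Villin-Wls cKO. Control tumors lie low, with C3 at most 16.1 FPKM over a wide range of Cfi, and Villin-Wls cKO tumors 2 and 3 combine high C3 with the lowest Cfi.

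Of 46 further complement genes on the list, 21 had values here, 20 of them above the filter. The 20 names form 19 measurements, since C1s1 and C1s2 share 1 value in every tumor and both count as higher. C5ar2 counts among the lower, although its values are shared with the gene model Gm26473. Of the 20 names, 10 were higher and 10 lower, their median being 0.024 on the log2 scale, and 1 passed the threshold, beside 10.9% of all genes. This was Fcna, which encodes a ficolin, a recognition protein of the lectin pathway. It was at 1.03, 1.69, 2.45, 2.25 and 1.96 FPKM in control tumors 1 to 5 and between 3.72 and 4.57 FPKM in Villin-Wls cKO tumors, without overlap. Its log2 change was 0.85 ± 0.14 (SE, limma adjusted p = 0.00438), and reads of its antisense gene Fcnaos cannot be told apart from its own. Without the filter on low values C1rb also passed, with a change of 0.60 (limma adjusted p = 0.0444).

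None of the 3 genes of the recognition protein C1q, made mainly by macrophages, passed the threshold. C1qa was at 70.8 ± 21.8 FPKM in control and at 65.5 ± 28.2 FPKM in Villin-Wls cKO tumors (SD, n = 5 each), a log2 change of -0.17 (95% interval -0.84 to 0.49), and for C1qb and C1qc the values were -0.064 and -0.12 (limma adjusted p = 0.775, 0.931 and 0.84 for the 3 genes). Cfp, which encodes the convertase stabilizer properdin, had a log2 change of 0.14 (95% interval -0.28 to 0.57, limma adjusted p = 0.699). Clu and Cr1l likewise stayed short of the threshold. Clu, with the highest level of the fluid-phase regulators at 242 ± 51.2 FPKM in control tumors (SD, n = 5), had a log2 change of -0.23 (95% interval -0.99 to 0.54), and the membrane regulator Cr1l 0.16 (95% interval -0.023 to 0.34). Of the terminal pathway, 1 of 7 genes, C8g, was measured here, at 0.876 ± 0.51 FPKM in control and 1.02 ± 0.483 FPKM in Villin-Wls cKO tumors (SD, n = 5 each).

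**Figure D4:**
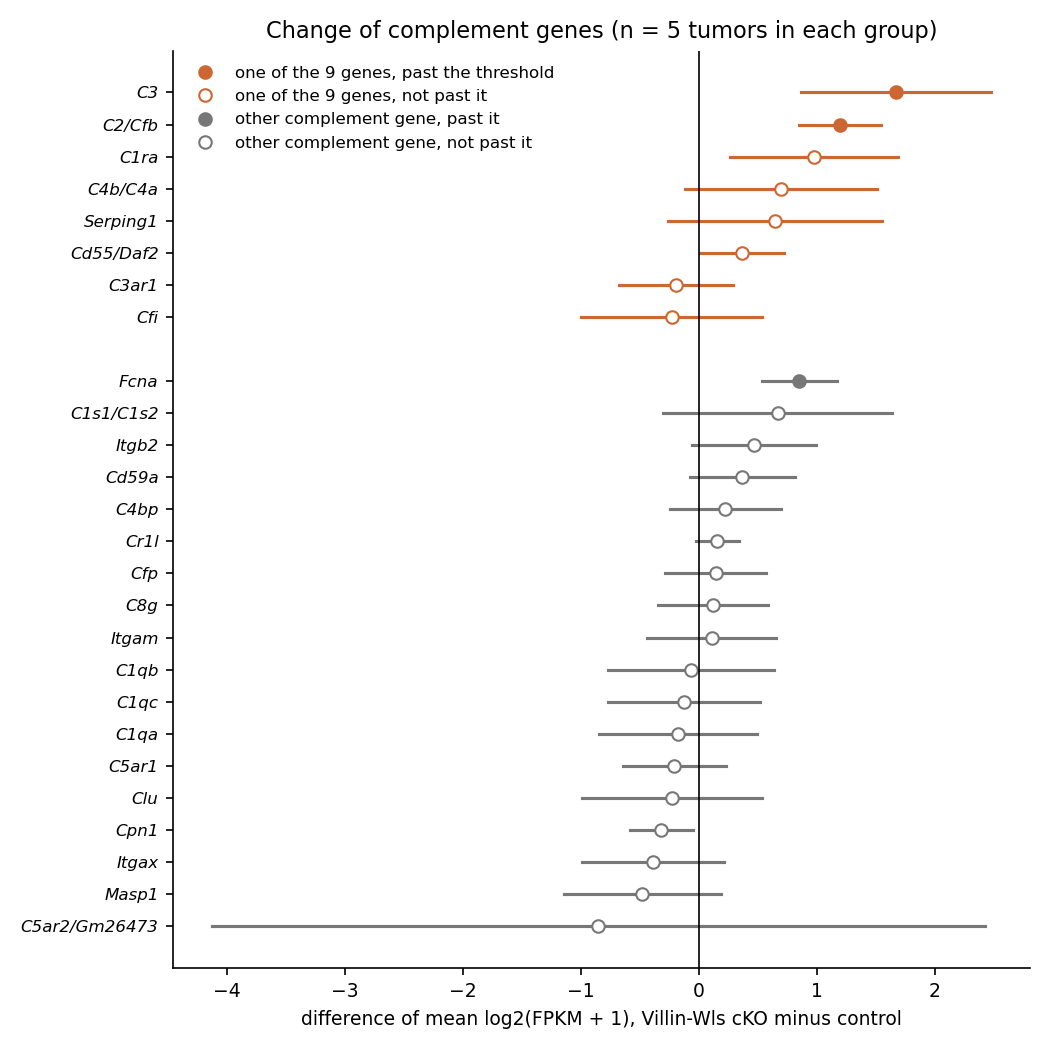
Difference of mean log2(FPKM + 1), Villin-Wls cKO minus control, with its 95% limma interval for the 8 measurements (upper block) and for other complement genes tested (lower block); filled points passed the threshold. C3, C2 and Cfb, and Fcna are the filled points, all to the right of 0.

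Genes that respond to interferon-gamma all rose, that is 23 of the 23 listed genes with values, led by Cd74 and forming 22 separate measurements. Their median log2 change was 2.55, beside 1.67 for C3 and 1.20 for C2 and Cfb, and their summed level was between 343 and 461 FPKM in control and between 2409 and 3641 FPKM in Villin-Wls cKO tumors. That list was written with the rise of interferon genes in these tumors known and supports nothing on its own. Of 15 acute phase and NF-kB response genes tested, all were higher and 2 passed the threshold, beside 10.9% of all genes. Their median log2 change was 0.53. Neutrophil markers summed to between 226.7 and 775 FPKM in control and between 592 and 1242 FPKM in Villin-Wls cKO tumors, with 0 of 6 past the threshold in limma and 5 at an unadjusted p under 0.05. T cell markers summed to between 9.87 and 15.7 FPKM in control and between 14.9 and 24.9 FPKM in Villin-Wls cKO tumors. Of these 6 genes, 5 were higher and 4 passed the threshold. Lck, which leads the sum, and Cd4 did not pass it, with log2 changes of 0.076 and -0.049. Of 8 hepatocyte markers 2 had values, Alb and Tat. Alb was between 3.95 and 441 FPKM in control and between 6.72 and 46.6 FPKM in Villin-Wls cKO tumors (log2 change -1.18, limma adjusted p = 0.574). It was highest in control tumor 4, which also had the highest control value of C3. The sum of Alb and Tat was next highest in control tumor 5, at 130 FPKM, where C3 was at 7.93 FPKM. Tat rose from 6.06 ± 3.11 FPKM to 20.7 ± 4.51 FPKM (SD, n = 5 each), a log2 change of 1.68 without overlap of the groups (limma adjusted p = 0.0022). The part of these cells and signals in the rise of C3 and of C2 and Cfb was not tested.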

How the data were processed

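Stranded mRNA libraries of 10 macrodissected tumors (5 control, 5 Villin-Wls cKO) had been sequenced. Per the labels and the methods, the authors used FastQC for quality, TopHat2 2.1.1 for mapping to GRCm38.p5, and quantified genes with Cufflinks 2.2.1 and Cuffdiff, and the deposited values are FPKM per gene name and tumor. The annotation release and the use of strand are not given in the sources used here. Of 16875 names, 2419 shared all values with another name. All columns were mapped to a tumor by their titles.

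The group comparison used log2(FPKM + 1) (pseudocount 1) in limma 3.58.1, R 4.3.3, mean FPKM of at least 0.5, eBayes with a variance trend, no covariate, two-sided, Benjamini-Hochberg adjustment. The script was tested on simulated data. Positions come from GENCODE M21. Summaries and figures used Python 3.11.15, pandas 2.3.3 and matplotlib 3.10.9. The 9 genes and all lists were chosen with earlier results of these data known. Besides the 9, the text names further complement genes past the threshold, the most abundant of each role, close paralogs and the top gene of marker lists, and C1s1, C1s2, C1qb, C1qc, Krt20 and Tat after their values were seen. The values of 1 gene on the complement list are not reported here. Alternatives covered pseudocount, scaling, filter, variance model, tumor weights, a block for the replicate number, identical values counted once and each tumor left out. Leaving out Villin-Wls cKO tumors 2 and 3 together was added after seeing the data. Precision rests on the spread of 5 tumors, since depth is unknown.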

Additional observations from a re-analysis of the deposited data

Results flagged for a closer look

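On the log2(FPKM + 1) scale, 1 sample stood apart from its group by Dixon's gap test at the 95% level. This was among 36 groups of 5 tumors looked at for 18 complement genes, where chance flags about 1 group in 20. The count of flags holds for that scale only, and the values below are FPKM. C5ar2, which encodes a second receptor of the C5 fragment, was at 59.9 FPKM in Villin-Wls cKO tumor 3 and between 0.216 and 0.322 FPKM in the other 4 Villin-Wls cKO tumors. Control tumors 1 and 4 were also high, at 27.5 and 58.9 FPKM, and the other 3 control tumors lay between 0.154 and 0.242 FPKM. The name shares all values with Gm26473, a small nuclear RNA gene model that lies within C5ar2 on the same strand, so that the values cannot be assigned to C5ar2.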

How the results depend on the processing

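C2 and Cfb kept their direction and passed the threshold in all 22 alternatives (log2 change 1.05 to 1.3), and C3 in 21 of 22, with 1.29 and a loss of the call without Villin-Wls cKO tumors 2 and 3. C1ra passed in 2 of 22: its change was 1.03 when all tumors had an equal FPKM total and lay between 0.74 and 1.18 with single tumors left out. Cfi turned to 0.21 without Villin-Wls cKO tumors 2 and 3. C4b, Serping1, Cd55 and C3ar1 kept direction and stayed short of the threshold in each alternative run, and C3ar1 could not be tested at a mean FPKM of at least 5. Why these values moved was not tested. The other complement genes past the threshold numbered 2 without a filter and 0 at a mean FPKM of at least 5, which removes Fcna. All genes past the threshold numbered 1822, 1101 without tumors 2 and 3, and between 1229 and 1986 with single tumors left out. Setting equal FPKM totals moved 4 of 16 group means by more than 1 SD. The replicate numbers are names only: correlations of deviations between same-numbered tumors lay between -0.087 and 0.16, and 2 of 5 control tumors correlated best with their own number. With the replicate block 1627 genes passed, and the block changed no call among the 9 genes (C3 1.67, limma adjusted p = 0.0118).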
